A study of Homo sapiens with 36 samples.

Results

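The 8 genes described here encode the enzymes of the hexosamine pathway and of O-GlcNAc cycling. They are GFPT1, GFPT2, GNPNAT1, PGM3, UAP1, NAGK, OGT and OGA, and they were taken by gene name from a table of 60662 gene IDs, in which each name matched 1 ID. They were measured by RNA sequencing in A549 cells, a human lung adenocarcinoma line. Cells were transfected with 100 nM of a non-targeting siRNA (siControl) or of siRNA against ATF4 (siATF4) or ATF6 (siATF6), replated, and then kept in 25 mM or 0 mM glucose for 6 or 16 h. Medium in all groups held 2 mM glutamine and 10% dialysed serum and no pyruvate. Each of the 12 combinations of siRNA, glucose and time had 3 biological replicates, which makes 36 libraries. All groups are of 1 cell line and all were transfected, so no untransfected cells enter any comparison.

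The hexosamine pathway diverts fructose 6-phosphate from glycolysis and, with glutamine, acetyl-CoA and UTP, makes UDP-GlcNAc. This nucleotide sugar is the donor for N-glycans in the endoplasmic reticulum (ER) and Golgi and for O-GlcNAc, a single sugar on serines and threonines of nuclear and cytosolic proteins. GFPT1 and GFPT2 are alternative forms of the rate-limiting first enzyme, GNPNAT1, PGM3 and UAP1 carry out the following steps, and NAGK returns salvaged N-acetylglucosamine to the pathway. OGT adds O-GlcNAc and OGA removes it. ATF4 is the main transcription factor of the integrated stress response, and ATF6, like XBP1, belongs to the unfolded protein response of the ER. The comparisons ask how far mRNAs of the pathway follow glucose withdrawal and whether either knockdown changes that.

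Library totals lay between 39.4 and 78.7 M (counts) for 35 of them. The other library, labelled siATF4, 0 mM, 6 h, replicate 3, held 2.87 M, correlated with no other library above r = 0.197, and listed GFPT2, UAP1 and OGA at 0, so it was left out and that group has 2 libraries. At 16 h, ATF6 fell with siATF6 by 2.36 on the log2 scale in 25 mM glucose and fell by 2.58 in 0 mM (edgeR adjusted p = 1.79e-05 and 4.85e-06), whereas ATF4 with siATF4 fell by 1.29 in 0 mM (edgeR adjusted p = 0.000186) and differed by -0.28 in 25 mM, which missed the threshold (edgeR adjusted p = 0.759). At 6 h as labelled, ATF6 fell by 2.30 and fell by 2.17 in 25 and 0 mM (edgeR adjusted p = 0.00751 and 0.00921), and ATF4 differed by -1.15 and -1.11, neither past the threshold (edgeR adjusted p = 0.794 and 0.781). Without replicate 2 the 6 h values were -2.12 and -1.99 for ATF6 (edgeR adjusted p = 0.0102 and 0.00831) and -0.92 and -1.01 for ATF4 (0.609 and 0.408). All 5 epithelial markers were detected, with a summed level of 3027 to 8494 CPM (counts per 1 M counts of a library), EPCAM being low at 1.88 to 7.64 CPM. The summed level of 10 markers of other cell types was 3.40 to 11.7 CPM, and 4 of the 10 reached 1 CPM in some library. These were CD14 (0.58 to 8.02 CPM, a highest level above that of EPCAM), GFAP (0.88 to 5.27), CDH5 (0 to 1.77) and COL3A1 (0.03 to 1.51). The lymphocyte markers CD3E and MS4A1 were at 0 in all 35 libraries. The 6 h libraries labelled replicate 2 went against their labels in siControl and siATF6. Over 5224 genes called at 16 h in siControl, the members left out, the log2 ratio of the 0 mM to the 25 mM library at 6 h correlated with the 16 h change at r = -0.697 in siControl and -0.646 in siATF6 for replicate 2, against 0.560 to 0.679 for replicates 1 and 3 of both. In siATF4 the values were 0.645 and 0.569 for replicates 1 and 2. The 6 h tests are therefore given as labelled and without replicate 2. The choice to leave it out used the 16 h response to deprivation. P-values of deprivation at 6 h, and of its interaction with time, without replicate 2 are conditional on that choice. At 16 h, 1 siATF4 library of 0 mM glucose, replicate 3, stood apart. Its TMM factor was 0.775, against 0.912 to 1.07 in the other 34, and its median correlation with the other libraries was r = 0.975, against at least 0.985. Calls of the members that use it are given with and without it.

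In the deposited table (GRCh38), GFPT1 (ENSG00000198380.12) lies at chr2:69319769-69387254 on the minus strand and GFPT2 (ENSG00000131459.13) at chr5:180300698-180353336, minus. The genes of the middle steps are GNPNAT1 (ENSG00000100522.10) at chr14:52775193-52791668, minus, PGM3 (ENSG00000013375.16) at chr6:83161150-83193936, minus, and UAP1 (ENSG00000117143.13) at chr1:162561506-162599842, plus. NAGK (ENSG00000124357.13) lies at chr2:71064344-71079808, plus, OGT (ENSG00000147162.14) on the X chromosome at chrX:71533104-71575892, plus, and OGA (ENSG00000198408.14) at chr10:101784443-101818465, minus.

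Promoter sequences are shown for GFPT1 and OGA, the members with opposite changes at 6 h once replicate 2 was left out (neither passed as labelled). Both are RefSeq sequence of GRCh38.p14, upstream of the gene start in the deposited table, on the minus strand, written 5′ to 3′, and capitals mark GC boxes (GGGCGG).
GFPT1, chr2:69387255-69387477: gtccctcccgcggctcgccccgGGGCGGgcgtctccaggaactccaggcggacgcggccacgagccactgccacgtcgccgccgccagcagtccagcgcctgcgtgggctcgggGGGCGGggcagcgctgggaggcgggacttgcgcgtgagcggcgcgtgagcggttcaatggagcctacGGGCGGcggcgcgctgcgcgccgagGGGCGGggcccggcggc
OGA, chr10:101818466-101818694: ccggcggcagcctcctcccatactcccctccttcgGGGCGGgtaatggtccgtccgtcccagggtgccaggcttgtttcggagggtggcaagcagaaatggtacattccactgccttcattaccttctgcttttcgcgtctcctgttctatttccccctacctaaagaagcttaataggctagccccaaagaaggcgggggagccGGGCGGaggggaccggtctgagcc
The GFPT1 stretch held 4 GC boxes and 80.3% G and C, and the OGA stretch 2 and 60.3%. RefSeq gives 12 promoter windows for the 8 members, each from 250 bases before to 50 after a start, and 11 of them held a GC box on either strand, against 45.0% of all 35116 windows. CCAAT was found in 5 of the 12 (34.6% of all windows). The elements bound by ATF6 and XBP1 (ERSE, ERSE-II and the unfolded protein response element TGACGTGG), the element bound by ATF4 (TGATGNAA) and the E-box CACGTG were in none of the 12 windows, and in 0.0769%, 0.0541%, 0.729%, 3.62% and 7.26% of all windows. CCAAT is also part of ERSE. These matches describe the letters in these windows only.

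Levels between genes were compared per kilobase of the effective length that the deposited table gives. In siControl with 25 mM glucose at 16 h, NAGK had the highest level, 33.4 ± 1.18 CPM per kilobase (SD, n = 3), followed by OGA (28.4 ± 2.38), GNPNAT1 (23.8 ± 3.00), OGT (23.3 ± 3.77) and GFPT2 (21.8 ± 7.51). PGM3 (14.9 ± 1.43), GFPT1 (14.9 ± 0.656) and UAP1 (13.7 ± 1.33) lay lowest and within each other's spread, as did GNPNAT1, OGT and GFPT2 among themselves. In 0 mM glucose GFPT1 had moved to the highest level, 62.5 ± 3.33 CPM per kilobase, above NAGK (50.5 ± 5.39) and OGT (43.0 ± 5.04). PGM3 (30.1 ± 6.89), OGA (28.5 ± 1.73), UAP1 (28.3 ± 12.8), GFPT2 (26.6 ± 12.5) and GNPNAT1 (26.0 ± 3.63) followed and were within their spread of each other. All 8 genes were well counted in each of the 35 libraries. The lowest count was 849, for GFPT2, and the highest 29007, for GFPT1.

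**Figure D1:**
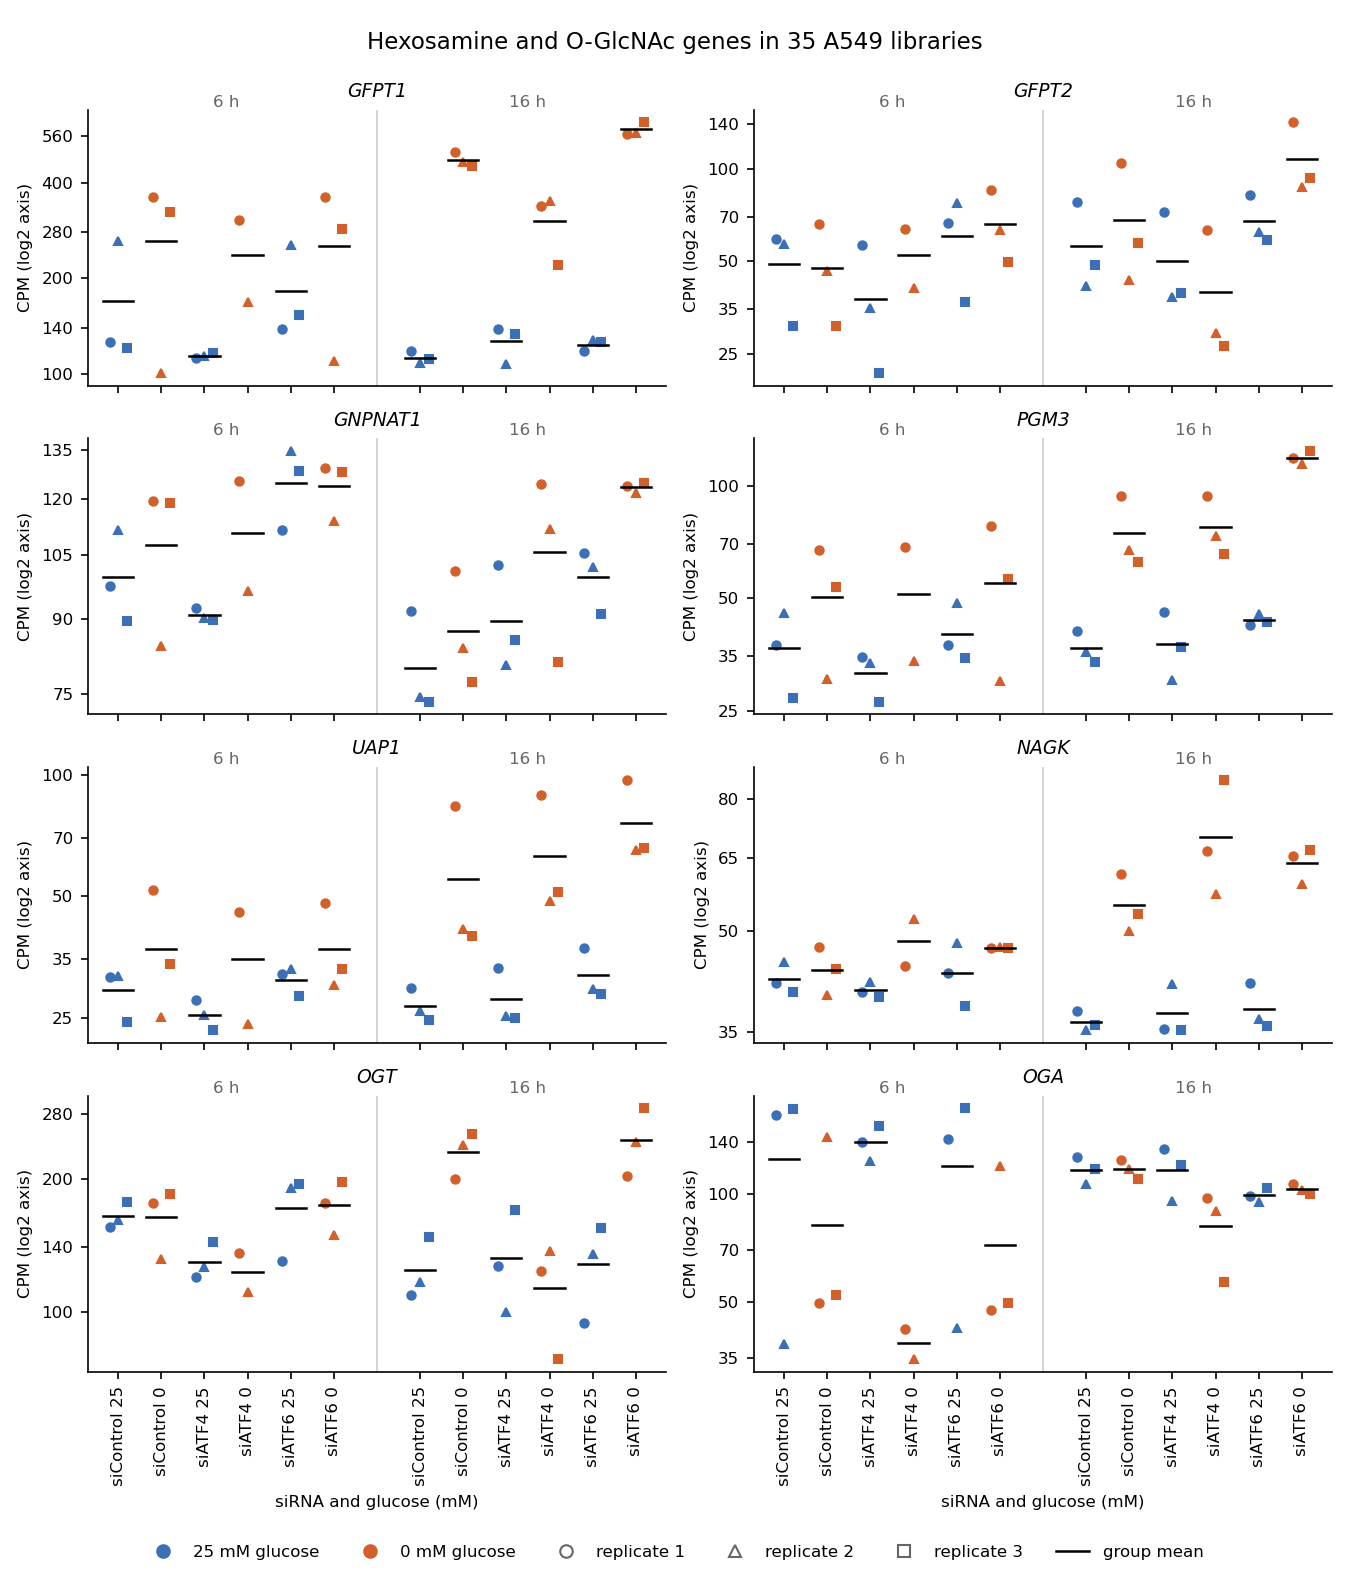
Level of each gene in CPM (log2 axis) in the 35 libraries, by siRNA, glucose and time; symbols give the replicate number and bars the group mean. At 16 h the GFPT1 libraries of 0 mM glucose (220 to 619 CPM) lie above all those of 25 mM (108 to 139 CPM), and at 6 h the libraries labelled replicate 2 in siControl and siATF6 lie on the opposite side for GFPT1 and OGA.

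In siControl cells, 5 of the 8 mRNAs rose after 16 h without glucose and none fell, while 14.6% of the 18013 genes tested rose and 14.5% fell. GFPT1, the entry enzyme, had the largest change of the 8. It stood at 118, 108 and 111 CPM in the 3 libraries of 25 mM glucose and at 500, 465 and 451 CPM in those of 0 mM. The groups were far apart, with a log2 fold change of 2.06 ± 0.15 (SE; edgeR adjusted p = 6.01e-08). The other form of this enzyme, GFPT2, differed by 0.28 ± 0.38 (SE; edgeR adjusted p = 0.626), and its groups overlapped, at 77.9, 41.5 and 48.7 CPM in 25 mM and 104, 43.4 and 57.2 CPM in 0 mM. In both groups the replicate 1 library was the highest for GFPT2. Replicate numbers pair the libraries of this comparison, and GFPT2 was higher in 0 mM in every same-numbered pair (log2 ratios 0.42, 0.07 and 0.23).

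Of the enzymes between the first step and UDP-GlcNAc, the last steps rose and the acetylation step did not pass the test. PGM3, the mutase, was at 40.8, 35.99 and 33.9 CPM in 25 mM and at 94.0, 67.2 and 62.4 CPM in 0 mM, a log2 fold change of 1.01 ± 0.17 (SE; edgeR adjusted p = 0.000341). UAP1, which makes UDP-GlcNAc itself, was at 29.6, 26.0 and 24.6 CPM and at 84.0, 41.5 and 39.97 CPM, a log2 fold change of 1.04 ± 0.28 (SE; edgeR adjusted p = 0.0110). The groups did not overlap for either gene, but the 0 mM library of replicate 1 stood well above the other two for UAP1. Without it the UAP1 change was 0.61 and missed the threshold (edgeR adjusted p = 0.0914). GNPNAT1, the acetyltransferase, differed by 0.12 ± 0.15 (SE; edgeR adjusted p = 0.581), with 91.6, 74.6 and 73.7 CPM in 25 mM and 101, 83.9 and 77.2 CPM in 0 mM. It too was higher in 0 mM in every same-numbered pair (log2 ratios 0.14, 0.17 and 0.07). Exons of 2 members overlap another gene on the opposite strand, and these libraries carry no strand: 35.6% of GNPNAT1 exon bases lie in AL139317.3 and 14.8% of those of PGM3 in DOP1A, so reads there cannot be told apart.

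NAGK, the salvage kinase, rose by a smaller amount. Its levels were 37.7, 35.2 and 35.9 CPM in 25 mM glucose and 61.4, 50.0 and 53.2 CPM in 0 mM, which do not overlap (log2 fold change 0.59 ± 0.13, SE; edgeR adjusted p = 0.00334). The pair of enzymes that add and remove O-GlcNAc did not move together. OGT was at 109, 117 and 148 CPM in 25 mM and at 200, 238 and 252 CPM in 0 mM, a log2 fold change of 0.88 ± 0.24 (SE; edgeR adjusted p = 0.0103). OGA had 127, 107 and 118 CPM in 25 mM and 125, 117 and 110 CPM in 0 mM, so its groups overlapped fully, with a log2 fold change of 0.00 ± 0.16 (SE; edgeR adjusted p = 0.999).

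With siATF6, the same 5 genes rose at 16 h, and 15.6% of all genes tested rose while 17.9% fell. GFPT1 went from 118, 128 and 126 CPM to 570, 574 and 619 CPM, a log2 fold change of 2.22 ± 0.15 (SE; edgeR adjusted p = 3.07e-08). PGM3 rose by 1.42 ± 0.17 on the log2 scale (SE; edgeR adjusted p = 1.34e-05), UAP1 by 1.23 ± 0.28 (0.00308), NAGK by 0.72 ± 0.13 (0.000634) and OGT by 0.90 ± 0.24 (0.00755). For each of these the libraries of 0 mM lay above all those of 25 mM. OGT, for example, was at 94.7, 136 and 155 CPM in 25 mM and at 202, 242 and 288 CPM in 0 mM, and PGM3 at 42.3 to 45.6 and 114 to 124 CPM. OGA differed by 0.03 ± 0.16 (SE; edgeR adjusted p = 0.915). GFPT2 and GNPNAT1 differed by 0.64 ± 0.38 and 0.29 ± 0.15 (SE; edgeR adjusted p = 0.220 and 0.159), and in the fit blocked by replicate number, which pairs the libraries of this comparison, both passed, at 0.61 and 0.29 (edgeR adjusted p = 0.00315 and 0.0420). GFPT2 was higher in 0 mM in 3 of 3 same-numbered pairs, and GNPNAT1 also in 3 of 3.

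With siATF4, 4 of the 8 rose at 16 h and 1 fell, with 14.9% of all genes tested higher and 14.2% lower. GFPT1 was at 139, 108 and 134 CPM in 25 mM and at 337, 350 and 220 CPM in 0 mM, a log2 fold change of 1.24 ± 0.14 (SE; edgeR adjusted p = 1.57e-05). Its groups did not overlap, and all 3 libraries of 0 mM lay below those of siControl. Without the 0 mM library of replicate 3 the GFPT1 change was 1.42 (edgeR adjusted p = 1.12e-07). PGM3 rose by 1.02 ± 0.17 (SE; edgeR adjusted p = 0.000428), UAP1 by 1.16 ± 0.28 (0.00612) and NAGK by 0.89 ± 0.13 (0.000181). For these 3 the groups did not overlap either, with 65.7 to 94.0 CPM of PGM3 in 0 mM above 30.3 to 45.9 in 25 mM, 48.7 to 89.3 of UAP1 above 25.0 to 33.2, and 57.1 to 85.8 of NAGK above 35.3 to 41.5. Without the 0 mM library of replicate 3 PGM3 rose by 1.12, UAP1 by 1.29 and NAGK by 0.71 (edgeR adjusted p = 0.000229, 0.00702 and 0.000227). OGT, at 127, 100 and 170 CPM in 25 mM and 124, 138 and 78.5 CPM in 0 mM, differed by -0.24 ± 0.23 (SE; edgeR adjusted p = 0.465), and its groups overlapped.

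OGA was the member that fell with siATF4, from 134, 96.0 and 121 CPM to 97.6, 89.7 and 57.1 CPM. The groups overlapped by 1 library, and the log2 fold change was -0.54 ± 0.16 (SE; edgeR adjusted p = 0.0187). It was -0.43 without the 25 mM library of replicate 1 (edgeR adjusted p = 0.0936) and -0.51 without that of replicate 3 (0.0610). Without the 0 mM library of replicate 3, which stood apart, it was -0.34 and still passed (edgeR adjusted p = 0.0449), and over all 6 libraries left out in turn it ran from -0.34 to -0.68. That 0 mM library had the lowest GFPT1, GFPT2, GNPNAT1, PGM3, OGT and OGA of its group and the highest NAGK (85.8 CPM, against 66.7 and 57.1 CPM). GFPT2 and GNPNAT1 differed by -0.36 ± 0.38 and 0.22 ± 0.15 (SE; edgeR adjusted p = 0.516 and 0.288). Without the 0 mM library of replicate 3, GNPNAT1 was higher by 0.38 (edgeR adjusted p = 0.0423).

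**Figure D2:**
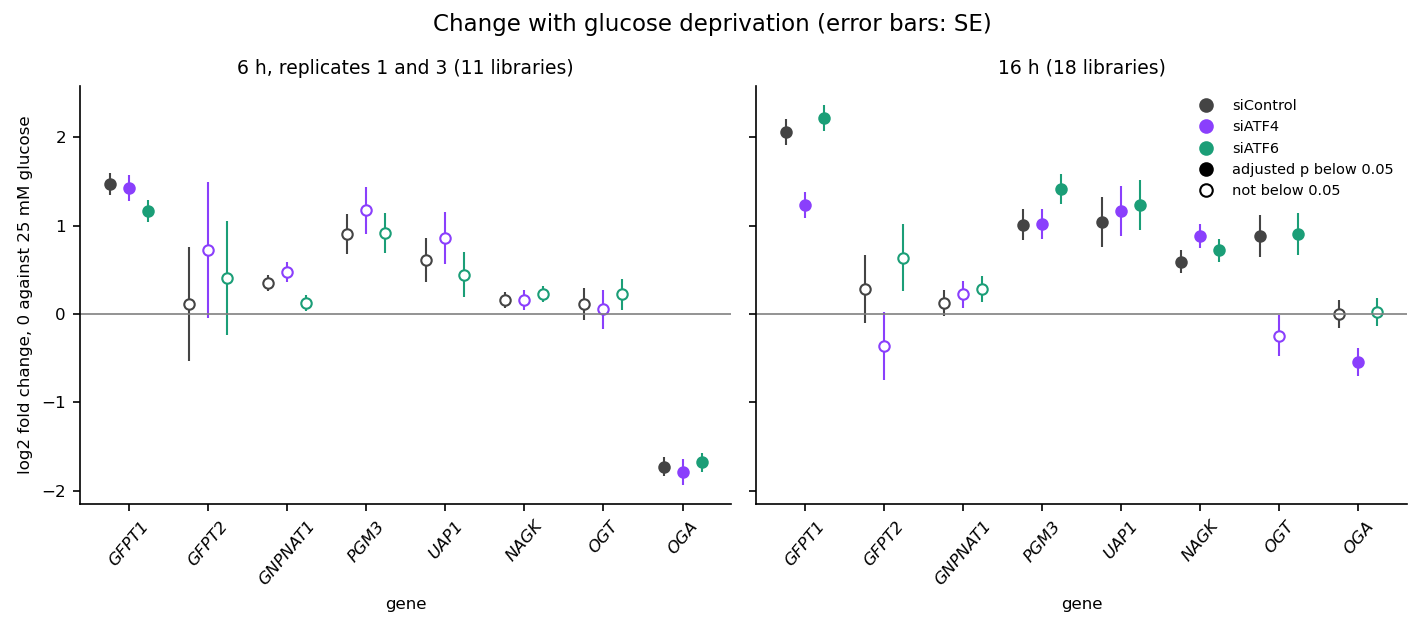
Log2 fold change of each gene, 0 against 25 mM glucose, with its SE, for siControl, siATF4 and siATF6 at 6 h (replicates 1 and 3 only) and at 16 h; filled points have an adjusted p below 0.05. At 16 h GFPT1 stands at 2.06, 1.24 and 2.22 in the order of the siRNAs, and at 6 h OGA stands at -1.73, -1.79 and -1.68.

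The knockdowns were next compared with siControl at the same glucose concentration and 16 h. Without glucose, siATF4 cells had lower GFPT1, OGT and OGA, 3 of 8 members, where 12.4% of all genes tested differed in either direction. The log2 fold changes were -0.66 ± 0.14 for GFPT1, -1.03 ± 0.24 for OGT and -0.54 ± 0.16 for OGA (SE; edgeR adjusted p = 0.0106, 0.0138 and 0.0388). All 3 siATF4 libraries lay below all 3 siControl libraries for each of the 3 genes. Without siATF4 replicate 3, the library that stood apart, GFPT1 was lower by -0.47 and passed (edgeR adjusted p = 0.0146), while the other two missed the threshold. OGT missed the threshold without siControl replicate 3 (-0.97, edgeR adjusted p = 0.0649) and without siATF4 replicate 3 (-0.83, 0.0559). OGA missed it without any 1 of the 3 siControl libraries of 0 mM (-0.50 to -0.59, edgeR adjusted p = 0.0823 to 0.107) and without siATF4 replicate 3 (-0.34, 0.111). GFPT2 was lower by -0.80 ± 0.39 (SE; edgeR adjusted p = 0.170). With the replicate block, which pairs these groups, the GFPT2 value was -0.81 and passed (edgeR adjusted p = 0.00228), and it was lower in 3 of 3 pairs. Without the block, GFPT2 passed in 1 of 6 fits with a library left out, that without siATF4 replicate 1 (-1.31, edgeR adjusted p = 0.0326). Without siATF4 replicate 3, the library that stood apart, GFPT2 was at -0.58 and missed the threshold (edgeR adjusted p = 0.501). PGM3, UAP1, GNPNAT1 and NAGK differed by 0.04, 0.18, 0.26 and 0.33, none past the threshold. NAGK passed in 1 of 6 fits with a library left out, that without siATF4 replicate 2 (0.46, edgeR adjusted p = 0.0222). Without siATF4 replicate 3 it was at 0.16 and missed the threshold (edgeR adjusted p = 0.462). In 25 mM glucose no member differed between siATF4 and siControl in edgeR, 0 of 8 also at an unadjusted p under 0.05 and in DESeq2, with 0.0444% of all genes called and members' log2 fold changes between -0.16 and 0.17. ATF4 itself differed by -0.28 in those libraries, as given above.

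With siATF6 and no glucose, PGM3 was higher than in siControl, the 1 member called where 4.02% of all genes were. Its levels were 118, 114 and 124 CPM against 94.0, 67.2 and 62.4 CPM, which do not overlap (log2 fold change 0.66 ± 0.17, SE; edgeR adjusted p = 0.0407). The call was lost without siControl replicate 2 (0.59, edgeR adjusted p = 0.155) or 3 (0.56, 0.205), and without siATF6 replicate 1 (0.66, 0.0667), 2 (0.68, 0.113) or 3 (0.63, 0.158). With the replicate block, which pairs these groups, PGM3 (0.68, edgeR adjusted p = 0.00572), GFPT2 (0.69, 0.00677), GNPNAT1 (0.50, 0.0100) and UAP1 (0.50, 0.0377) were higher. Without the block GFPT2, GNPNAT1 and UAP1 were at 0.64, 0.48 and 0.45 (edgeR adjusted p = 0.417, 0.0858 and 0.432). The share of 4.02% belongs to the fit without the block, and the share of all genes called with it is not given here. GFPT1, OGT and OGA differed by 0.30 ± 0.14, 0.07 ± 0.23 and -0.20 ± 0.16 (SE; edgeR adjusted p = 0.279, 0.923 and 0.569). In 25 mM glucose edgeR called 0 of 8 members, 1 at an unadjusted p under 0.05 and 0 in DESeq2, with 0.749% of all genes called.

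Whether the response to deprivation itself differed between siRNAs was tested with interaction terms. GFPT1 responded less with siATF4 than with siATF6, by -0.98 ± 0.20 on the log2 scale (SE; edgeR adjusted p = 0.0477), the 1 member called where 0.355% of all genes were. This call was lost when any 1 of 8 libraries was left out, namely siATF4 25 mM replicates 1 and 3 and all 6 of siATF6, with differences of -0.91 to -1.004 (edgeR adjusted p = 0.0727 to 0.163). It passed without the siATF4 library that stood apart (-0.80, edgeR adjusted p = 0.0143). OGT differed by -1.15 ± 0.33 and GFPT2 by -0.997 ± 0.54 (SE; edgeR adjusted p = 0.213 and 0.580). Against siControl, the siATF4 response of GFPT1 was smaller by -0.83 ± 0.20 and that of OGT by -1.12 ± 0.33, neither past the threshold (SE; edgeR adjusted p = 0.162 and 0.306). That comparison called 0 of 8 members in edgeR (3 at an unadjusted p under 0.05) where 0.172% of all genes were called, and 1 of 8 in DESeq2, GFPT1 (adjusted p = 0.0208). For siATF6 against siControl, edgeR called 0% of genes (412 at an unadjusted p under 0.05, and 16 in DESeq2). None of the 8 members was called or below an unadjusted p of 0.05 there, and the largest difference was 0.40 ± 0.24, for PGM3.

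At 6 h, as labelled, no member passed the test of deprivation in any siRNA, and edgeR called 0% of all genes in each. For siControl, siATF4 and siATF6 the numbers of genes at an unadjusted p under 0.05 were 181, 695 and 148, and DESeq2 called 1, 0 and 0 genes. Of the members, 0, 2 and 0 were at an unadjusted p under 0.05. OGA in the siControl libraries labelled 25 mM was at 166, 38.3 and 173 CPM, and in those labelled 0 mM at 49.7, 144 and 52.5 CPM. In siATF6 the values were 143, 42.5 and 173 CPM and 47.6, 119 and 49.9 CPM. In both, the 2 libraries labelled replicate 2 were on the opposite side from replicates 1 and 3. In siATF4, where replicate 2 did not go against its label, OGA was at 140, 124 and 154 CPM in 25 mM and at 42.2 and 34.8 CPM in 0 mM, with no overlap.

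Without replicate 2 (11 libraries of 6 h), OGA was lower and GFPT1 higher after deprivation in each siRNA, and these were the 2 members called in each. OGA had log2 fold changes of -1.73 ± 0.11 in siControl, -1.79 ± 0.14 in siATF4 and -1.68 ± 0.11 in siATF6 (SE; edgeR adjusted p = 0.000324, 0.00136 and 0.00104). GFPT1 had 1.47 ± 0.13, 1.42 ± 0.15 and 1.17 ± 0.12 (SE; edgeR adjusted p = 0.00116, 0.00468 and 0.00569). GFPT1 in replicates 1 and 3 was at 126 and 121 CPM in siControl 25 mM and at 361 and 324 CPM in 0 mM, and in siATF6 at 139 and 154 CPM and at 361 and 286 CPM. These did not overlap. The share of all genes called was 3.92% in siControl, 1.17% in siATF4 and 1.82% in siATF6. With replicate 2 gone, siATF4 in 0 mM has 1 library, which is assumed to vary like the other groups. Replicate 2 was left out because its siControl and siATF6 libraries ran against the 16 h response to deprivation. The adjusted p-values without it are conditional on that choice. When siATF4 replicate 2 was kept, OGA passed in all 3 siRNAs (-1.71, -1.85 and -1.68), and GFPT1 in siControl (1.49) and siATF4 (1.06) but not in siATF6 (1.16, edgeR adjusted p = 0.0555). PGM3 differed by 0.91, 1.17 and 0.92 in the fit without replicate 2, short of the threshold (edgeR adjusted p = 0.0739, 0.0964 and 0.0935), and OGT by 0.11, 0.05 and 0.22 (0.836, 0.953 and 0.676). The remaining members, none of them past the threshold, had values of 0.45 to 0.86 for UAP1, 0.12 to 0.47 for GNPNAT1, 0.15 to 0.23 for NAGK and 0.12 to 0.72 for GFPT2 over the 3 siRNAs.

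No member passed the edgeR test of either knockdown at 6 h as labelled. Against siControl, siATF4 called 0 of 8 members and 0% of genes in both glucose concentrations (755 and 968 genes at an unadjusted p under 0.05 in 25 and 0 mM, and 20 and 36 in DESeq2). With siATF6, 0 of 8 members were called in either concentration, where 0.496% of all genes were in 25 mM and 0.311% in 0 mM. DESeq2 called 0 of 8 in all 4 comparisons, and the members at an unadjusted p under 0.05 in edgeR were 0 and 1 for siATF4 and 1 and 0 for siATF6 in 25 and 0 mM. The interactions of deprivation with siATF4 and siATF6 at 6 h called 0% of genes and 0 of 8 members in edgeR (150 and 106 genes and 0 members at an unadjusted p under 0.05) and none in DESeq2. Without replicate 2, edgeR again called 0 of 8 members in each of these 6 comparisons. The share of all genes called was then 0% for siATF4 in both concentrations (621 and 862 genes at an unadjusted p under 0.05), 0.0851% and 0.117% for siATF6 in 25 and 0 mM, and 0% for both interactions (186 and 234 genes). Of the members, 1 was at an unadjusted p under 0.05, for siATF6 in 25 mM (GNPNAT1, 0.35, edgeR adjusted p = 0.231). Log2 fold changes of the members between either knockdown and siControl lay between -0.39 and 0.49 in that fit.

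Between 6 and 16 h in siControl, the change with deprivation was larger at 16 h for NAGK, by 0.55 ± 0.17 on the log2 scale (SE; edgeR adjusted p = 0.0394). It was the 1 member called as labelled, with 8.62% of all genes called. That value was 0.44 without the 6 h libraries of replicate 2 and missed the threshold (edgeR adjusted p = 0.229), and the call was also lost without any 1 of 8 siControl libraries, at 0.46 to 0.58 (edgeR adjusted p = 0.0548 to 0.126). Those 8 are 25 mM 6 h replicates 1 and 2, 0 mM 6 h replicate 2, all 3 of 25 mM 16 h, and 0 mM 16 h replicates 1 and 3. GFPT1 and OGT had differences of 1.44 ± 0.52 and 0.89 ± 0.30 (SE; edgeR adjusted p = 0.0881 and 0.0610). Each passed in 1 of 12 fits with a library left out. These were GFPT1 without 0 mM 6 h replicate 1 (1.74, edgeR adjusted p = 0.0437) and OGT without 25 mM 16 h replicate 3 (1.03, 0.0493). Without the 6 h libraries of replicate 2 the differences of GFPT1 and OGT were smaller, at 0.59 and 0.77. Without replicate 2, OGA was the 1 member called, with a difference of 1.73 ± 0.23 (SE; edgeR adjusted p = 7.69e-05), where 4.5% of all genes were. In those libraries OGA was low in 0 mM at 6 h, whereas at 16 h its groups overlapped. As labelled the OGA difference was 0.61 ± 0.64 (SE; edgeR adjusted p = 0.640).

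The ratio of OGT to OGA counts within a library does not depend on library size. At 16 h the log2 ratio in siControl was -0.21, 0.13 and 0.33 in 25 mM glucose and 0.68, 1.02 and 1.19 in 0 mM. In siATF6 it was -0.06, 0.51 and 0.57 and then 0.92, 1.24 and 1.53, and in siATF4 -0.07, 0.06 and 0.49 and then 0.35, 0.62 and 0.46. The groups did not overlap in siControl and siATF6 and overlapped in siATF4. The mean difference over the 3 siRNAs was 0.70, made up of 0.88 in siControl, 0.31 in siATF4 and 0.89 in siATF6 (exact permutation test within siRNA, two-sided, p = 0.00075 over 8000 arrangements, the lowest possible being 0.00025). The difference between siRNAs was not tested for the ratio. For 6 h, the value and p without replicate 2 are conditional on leaving it out, as above. At 6 h as labelled the mean difference was 0.98 (exact permutation test, two-sided, p = 0.0513). Without replicate 2 it was 1.87, with 1.84, 1.85 and 1.92 in siControl, siATF4 and siATF6 (exact permutation test, two-sided, p = 0.00926, the smallest that 108 arrangements can give).

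**Figure D3:**
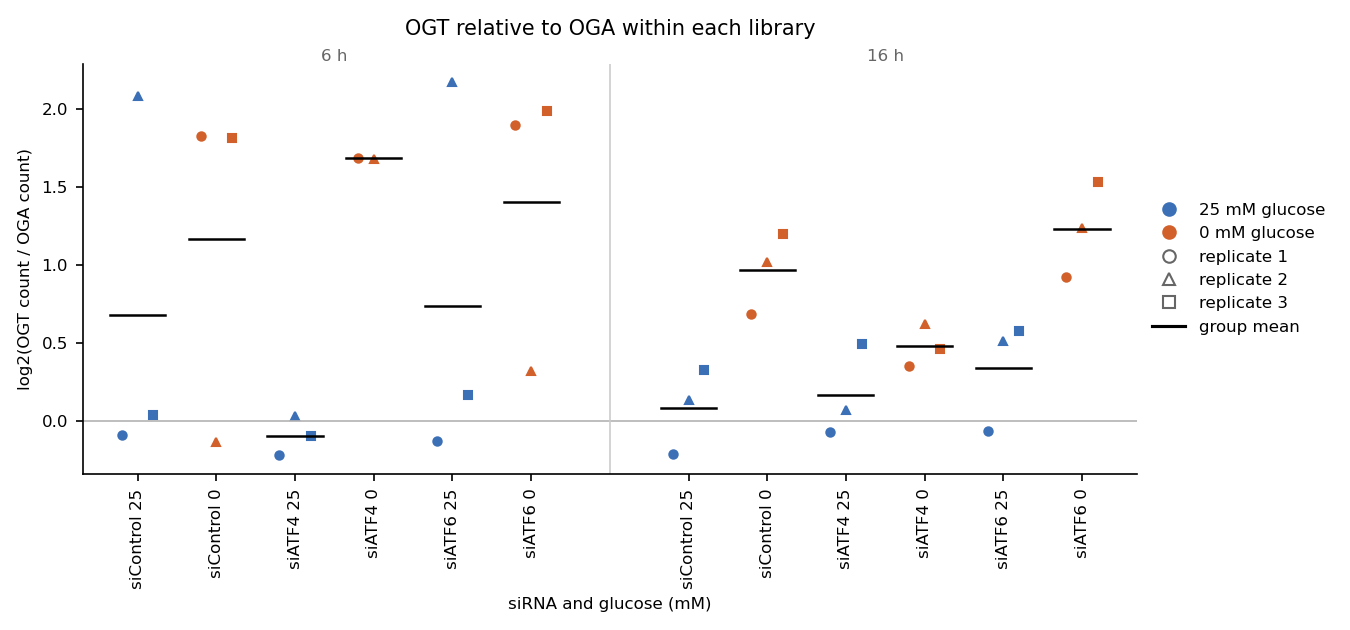
Log2 of the OGT count over the OGA count in each of the 35 libraries, by siRNA, glucose and time; symbols give the replicate number and bars the group mean. At 6 h, replicates 1 and 3 of 0 mM glucose lie between 1.69 and 1.98 and those of 25 mM between -0.22 and 0.16, while the libraries labelled replicate 2 in siControl and siATF6 lie the other way round.

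Across the 35 libraries the members fell into closely and loosely correlated pairs of log2 CPM, given as a description since these libraries share conditions and depth. PGM3 and UAP1 correlated at r = 0.94, GFPT1 and PGM3 at 0.92 and GFPT1 and UAP1 at 0.83. OGT and OGA correlated at 0.03 and GFPT1 and OGA at -0.39. Among 11200 genes with a mean of at least 5 CPM, the 3 most like GFPT1 were FBXO42 (r = 0.97), MTFR1 (0.97) and NUS1 (0.96). Those most like PGM3 were ARMCX3 (0.99), ARFGAP3 (0.98) and GOLGA5 (0.97), and for UAP1 they were PLIN2 (0.95), PACC1 (0.94) and STX3 (0.94). NAGK was nearest to WDR13 (0.97), SLC25A6 (0.97) and UBXN1 (0.96). OGT and OGA had looser neighbours, LRRFIP1 (0.89), TBC1D20 (0.87) and SPIN3 (0.87) for OGT and CEP68 (0.84), BCL7A (0.80) and NRARP (0.80) for OGA. GFPT2 was nearest to ANTXR2 (0.89), MAP2K1 (0.87) and AMPD3 (0.86), and GNPNAT1 to SINHCAF (0.88), BIRC2 (0.88) and INIP (0.86).

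The surrounding pathway was described from 5 further lists, in siControl at 16 h. Of 9 genes of precursor supply and hexosamine breakdown, 5 rose and 2 fell (median log2 fold change 0.51, against 0.01 over all genes tested, of which 14.6% rose and 14.5% fell). RENBP, among the 5, was barely counted, at 0.16 ± 0.07 CPM in 25 mM and 0.44 ± 0.13 in 0 mM (SD, n = 3; edgeR adjusted p = 0.0417). UAP1L1, a relative of UAP1, rose by 1.06 (edgeR adjusted p = 1.15e-05) and HK2, which phosphorylates glucose, by 2.82 (9.69e-05), from 2.35 ± 1.12 to 16.8 ± 7.36 CPM (SD, n = 3). The glucosamine 6-phosphate deaminases GNPDA1 and GNPDA2, which run against the first step, moved apart, with log2 fold changes of 0.51 and -0.50 (edgeR adjusted p = 0.0116 and 0.00999). Of 5 genes of the sialic acid branch 1 rose, NANS, the sialic acid synthase (1.15, edgeR adjusted p = 0.000114), and the list's median was 0.13.

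Of 12 genes that use UDP-GlcNAc in the ER and Golgi, 2 were higher and 3 lower (median 0.08), numbers near the shares of all genes given above. DPAGT1, which starts the N-glycan precursor, rose by 0.99 (edgeR adjusted p = 1.08e-06) and ALG13, a subunit of the next transferase, by 0.32 (0.00962). HAS3, a hyaluronan synthase, fell by 1.65 on the log2 scale (edgeR adjusted p = 1.29e-06), from 68.6 ± 6.87 to 21.8 ± 3.53 CPM (SD, n = 3), and MGAT5, a branching enzyme of the Golgi, fell by 0.84 (0.0137). Of 14 genes for other nucleotide sugars 7 rose and none fell (median 0.47), led by GMPPB (1.43, edgeR adjusted p = 1.66e-07), GMPPA (1.52, 1.18e-05), UGP2 (0.68, 1.46e-05) and GALK2 (0.78, 0.000112). GMPPA and GMPPB form the enzyme that makes GDP-mannose, UGP2 makes UDP-glucose, and GALK2 is a sugar kinase. Of 5 transcription factors 4 rose, among them DDIT3 (5.68, edgeR adjusted p = 2.47e-10) and XBP1 (2.00, 5.00e-09).

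**Figure D4:**
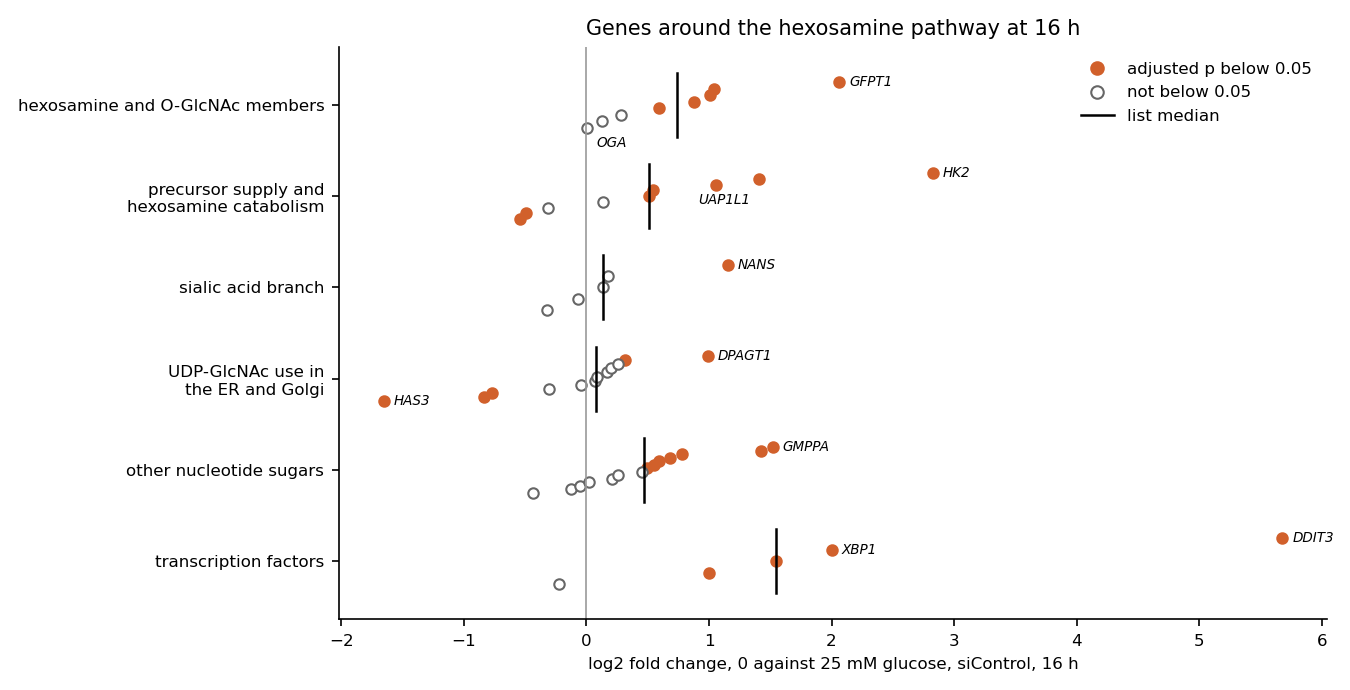
Log2 fold change at 16 h in siControl, 0 against 25 mM glucose, of each gene in the lists around the pathway; filled points have an adjusted p below 0.05 and bars give each list's median. The 8 members have a median of 0.74, and the genes that use UDP-GlcNAc lie on both sides of 0, from -1.65 for HAS3 to 0.99 for DPAGT1.

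The same lists were counted in the knockdowns at 16 h. With siATF4 the numbers higher and lower were 4 and 1 for precursor supply and breakdown, 1 and 1 for the sialic acid branch, 4 and 4 for UDP-GlcNAc use, 9 and 0 for other nucleotide sugars, and 3 and 1 for the transcription factors, where 14.9% of all genes were higher and 14.2% lower. With siATF6 they were 4 and 2, 1 and 1, 4 and 5, 7 and 0, and 4 and 1, where the shares of all genes were 15.6% and 17.9%. The sialic acid branch, with 1 of 5 each way, was near those shares in both. In 0 mM glucose siATF4 cells differed from siControl in 6 of the 14 genes for other nucleotide sugars, all higher, among them GMPPB (0.44, edgeR adjusted p = 0.0199), where 7.32% of all genes were higher and 5.09% lower. In the same comparison 2 of 12 genes of UDP-GlcNAc use were higher, DPAGT1 (0.30, edgeR adjusted p = 0.0452) and HAS3 (0.49, 0.0490). Of the 5 transcription factors 2 were lower, MLXIP (-0.43, edgeR adjusted p = 0.0320) and ATF4. ATF4 is the target of this siRNA, so its fall was set by the design. None of the 9 genes of precursor supply and breakdown or of the 5 of the sialic acid branch was called. Within these bulk libraries, less mRNA per cell and fewer cells expressing a gene cannot be told apart.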

How the data were processed

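The deposited table holds expected counts per gene, which the authors made with RSEM, along with gene lengths; the submitters' processing notes also name fastp, STAR and the GRCh38 genome, without versions. Per the labels' protocols, poly(A) RNA was made into libraries without strand and sequenced as paired reads of 150 bases. Which annotation the counts rest on was not stated in the sources used here. The other deposited columns used, length and effective length, were taken as the table gives them. Exon overlaps were read from GENCODE 29 and promoters from RefSeq (GRCh38.p14), for which all 8 members matched by symbol.

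Expected counts were rounded and tested with edgeR 4.0.16 (R 4.3.3): filterByExpr by group (minimum count 10, total 15), TMM factors, robust quasi-likelihood F tests, and Benjamini-Hochberg adjustment over all genes at 0.05. The 18 libraries of 16 h (18013 genes) and 17 of 6 h (18355 genes) were fitted apart, and all 35 together (19030 genes) for the interaction with time. CPM are TMM-scaled over the 35 libraries. One mean was fitted per group. The members, lists and tests were chosen with earlier results of these data known. All 8 members were named in every comparison, and from each list up to 4 genes with the smallest adjusted p in siControl.

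Replicate numbers were taken to pair libraries where every same-numbered pair of a comparison deviated together (r over 0.1, 3 pairs). This held in 6 of 7 comparisons at 16 h (lowest r 0.200) but not for deprivation in siATF4 (lowest -0.614), and in 3 of 7 at 6 h. Alternatives were DESeq2 1.42.0, median-of-ratios factors, no filter, all 36 libraries, the replicate block and each library left out in turn. The fit that keeps siATF4 replicate 2 at 6 h was chosen after seeing the data. The steps were tested on simulated data. No pair of replicates differed by counting noise alone (mean chi-square per gene at least 9.07), so the spread between libraries of a group limits precision more than depth. Its coefficient of variation was 23.1% at 16 h in the fit without the replicate block. That value also holds shifts between replicate numbers and the siATF4 library that stood apart, and its sources were not tested.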

Additional observations from a re-analysis of the deposited data

Results flagged for a closer look

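The response of GFPT1 to deprivation at 16 h differed between siATF4 and siATF6 by -0.98 on the log2 scale (edgeR adjusted p = 0.0477), in a test of the difference itself. It was 1.24 with siATF4 and 2.22 with siATF6. The call was lost when any 1 of 8 of the 12 libraries was left out (edgeR adjusted p = 0.0727 to 0.163).

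The response of NAGK in siControl differed between 16 and 6 h by 0.55 on the log2 scale (edgeR adjusted p = 0.0394), again in a test of the difference itself. It was 0.44 and missed the threshold without the 6 h libraries of replicate 2, whose labels are in doubt (edgeR adjusted p = 0.229), and the call was also lost without any 1 of 8 of the 12 libraries (edgeR adjusted p = 0.0548 to 0.126). With groups of at most 3 libraries, values of single genes were not screened for outlying ones, beyond leaving out each library in turn.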

How the results depend on the processing

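Median-of-ratios factors changed no count of members called in the 20 comparisons. With all 36 libraries in 1 fit, which adds the library of 2.87 M counts, the counts of members called at 16 h for deprivation fell from 5 to 0 in siControl, 1 in siATF4 and 3 in siATF6, and to 0 for siATF4 and siATF6 against siControl in 0 mM, for the difference between siATF4 and siATF6 and for the interaction with time. Without the low-count filter, the last 2 of these were 0. DESeq2 called 2 members for siATF6 against siControl in 0 mM and 1 for the interaction with siATF4, both at 16 h. It called 2 for the difference between siATF4 and siATF6 and 3 for the interaction with time. In that order DESeq2 called 1531, 196, 296 and 2213 of all genes, against 725, 31, 64 and 1641 in edgeR. Numbers of all genes called are not given for the other alternatives here, nor for single libraries left out. The replicate block gave 4 for siATF6 against siControl in 0 mM, 2 for the difference between siATF4 and siATF6 (GFPT1 and GFPT2) and 2 for the interaction with time (NAGK and OGT). In siATF4 at 16 h, where the numbers share no pairing, the block added GFPT2 (-0.39, edgeR adjusted p = 0.0426). Over all groups of a time, 41 of 45 same-numbered pairs at 16 h and 35 of 40 at 6 h had r over 0.1. With the block the p of the OGT to OGA ratio, from exact sign flips, was 0.00781 at 16 h and 0.172 at 6 h. The block changed no other call of a member than those given here and beside the results.

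Deprivation at 6 h called 0 members as labelled and 2, 2 and 2 (siControl, siATF4, siATF6) without replicate 2, or 2, 2 and 1 when siATF4 replicate 2 was kept, and the 6 h ratio difference moved from 0.98 to 1.87. Leaving out each library in turn gave 4 to 5 members for deprivation in siControl at 16 h, 4 to 6 in siATF4 and 5 in siATF6, 1 to 4 for siATF4 against siControl in 0 mM, 0 to 1 for siATF6 against siControl in 0 mM, 0 to 1 for the difference between siATF4 and siATF6, 0 to 2 for the interaction with time, and 0 in the others. The ratio difference ran from 0.63 to 0.75 at 16 h and from 0.83 to 1.22 at 6 h, where it passed (exact permutation p = 0.0205 to 0.0460) without any 1 of the 4 libraries labelled replicate 2 in siControl and siATF6. No called value of a member changed sign. Of 1907 values that were uncalled both in the chosen fit and under an alternative, 196 changed sign. The cause of these shifts was not tested.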
